A study of Mus musculus with 6 samples.

Results

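Metabotropic glutamate receptors and their Homer scaffold proteins were examined in the deep cerebellar nuclei of mice trained in eyeblink conditioning. Of 9 genes looked for, Grm2, Grm3, Grm5, Grm7, Grm8, Homer1, Homer2 and Homer3 had a probe set whose platform annotation named that gene alone, and no probe set was annotated to Grm4 alone. These 8 of the 15944 genes on the arrays had 14 of 36701 probe sets, 6 for receptors and 8 for Homer genes.

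The paired group comprised male C57BL/6 mice, aged 11 to 18 weeks, given a 352-ms tone and a 100-ms shock beside the eye for 7 days, the shock starting 252 ms after the tone and ending with it. The unpaired group comprised male C57BL/6 mice of that age range that received tone and shock apart, in pseudorandom order, for 7 days. Both groups carried eyelid wires and a headstage, so neither is an untrained or unoperated control. Tissue centred on the anterior interpositus nucleus, the output nucleus on which the conditioned eyeblink depends, was taken with syringe needles on the side of the wired eye, and 10 to 15 nuclei were pooled per group. One pool per group was read on array designs A, B and C, giving 6 arrays and 1 array per group and design. The comparison asked how transcript levels in the nuclei after paired training differed from those after unpaired training. With 1 array per group and design no difference had a replicate check or a p-value, and the number of arrays limits the precision of every value given here.

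Metabotropic glutamate receptors are G protein-coupled receptors that tune the strength of glutamate synapses. Group I receptors, to which Grm5 belongs, act through Gq and phospholipase C to release calcium from internal stores, whereas group II (Grm2, Grm3) and group III (Grm4, Grm7, Grm8) receptors act through Gi/o proteins and mostly restrain transmitter release. Homer proteins bind the tails of group I receptors and link them to inositol trisphosphate receptors and to Shank proteins of the postsynaptic density. Long Homer forms assemble through a coiled coil, and a short Homer1 form without the coil is induced by neuronal activity and loosens these links. In the cerebellar cortex Homer3 is abundant in Purkinje cells, Grm4 in granule cells and Grm2 in Golgi cells.

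The promoter of Homer1 is shown because Homer1 is the member with an activity-induced transcript, and its probe sets are compared between the pools further on. The window is that of RefSeq on GRCm38.p6, chr13:93303507-93303806, plus strand, from 250 bases before to 50 bases after an annotated start site. Capitals mark each TGACG, the core of the cyclic AMP response element.
Homer1: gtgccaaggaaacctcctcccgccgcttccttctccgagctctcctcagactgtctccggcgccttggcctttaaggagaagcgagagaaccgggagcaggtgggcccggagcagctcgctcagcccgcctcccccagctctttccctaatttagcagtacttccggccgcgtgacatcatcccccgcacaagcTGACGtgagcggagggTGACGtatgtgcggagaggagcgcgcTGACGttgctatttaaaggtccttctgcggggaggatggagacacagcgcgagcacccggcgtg
The search covered TGACG and its reverse complement CGTCA, which do not overlap each other in this window. The window held 3 matches, all of TGACG on the plus strand, beginning 56, 40 and 14 bases before the start site. At least 1 match was present in 20.8% of 32851 windows of this length, and at least 3 in 1.03%. RefSeq windows were matched for 7 of the genes, 12 windows in all, and not for Grm4 or Grm5. Besides the Homer1 window, 1 Grm8 window held 1 match, and the other windows, including a second Homer1 window, held none. A match is a string of letters and was not tied to any measurement.

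None of the 14 probe sets differed by 1.5-fold between the pools, a log2 ratio of 0.585. Over all 36701 probe sets 0.839% did so in either direction, so a count of 0 among 14 lies near that background. Log2 ratios are paired over unpaired, after 0.010, 0.0084 and 0.0067 had been added to the paired arrays of designs A, B and C, which brought the median ratio of the brighter probe sets to 0. Of the 14 probe sets 8 were higher and 6 lower in the paired pool, beside 52.4% higher over all probe sets. Their median log2 ratio was 0.04, against 0.01 over all probe sets, and their SD was 0.14, against 0.20. Receptor probe sets were higher in 5 of 6 cases, with a median of 0.11, and Homer probe sets in 3 of 8, with a median of -0.01.

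**Figure D1:**
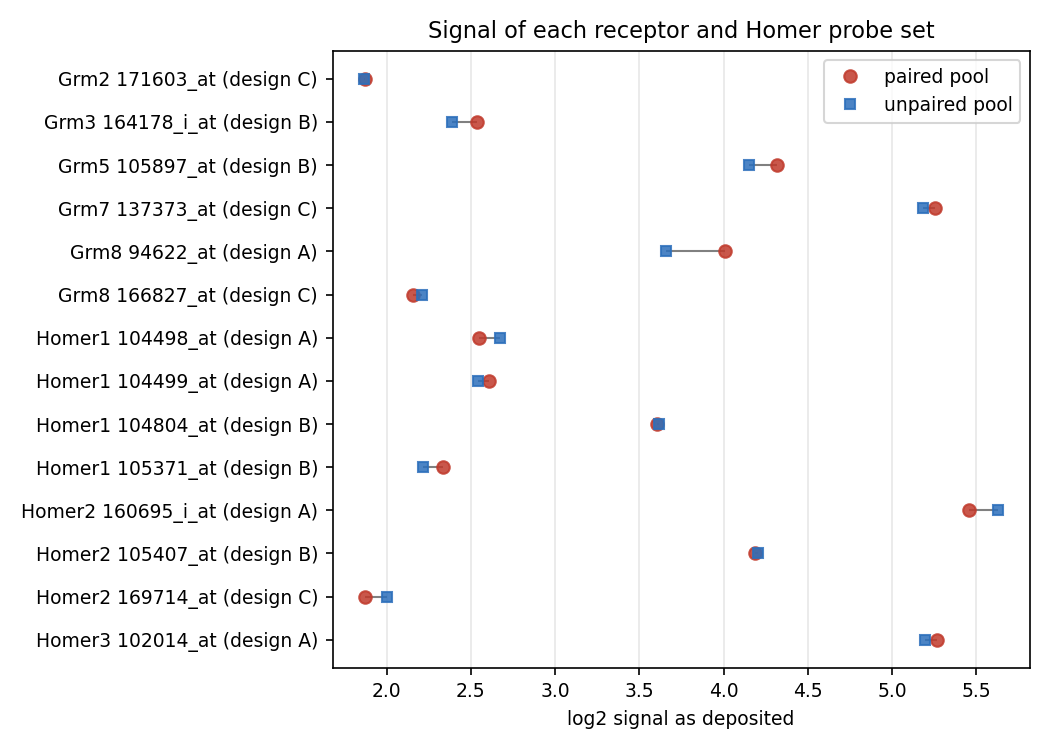
Log2 signal as deposited (horizontal axis) of each of the 14 probe sets in the paired pool (circles) and the unpaired pool (squares), 1 array per point, with a line joining the 2 arrays of a design. The widest gap is that of the Grm8 probe set on design A, 4.01 in the paired and 3.66 in the unpaired pool; levels of different probe sets are not comparable.

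Grm5, the group I receptor among the members, had a single probe set, 105897_at on design B. Its log2 signal was 4.32 in the paired and 4.15 in the unpaired pool, a log2 ratio of 0.17 or 1.13-fold. The probe set stood at the 49.9th percentile of signal on the paired array and the 46.5th on the unpaired array. Its ratio was smaller than the SD of log2 ratios among design B probe sets of the same signal quartile, 0.23, and 38.5% of all probe sets of that design lay at least as far from 0.

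Grm3, a group II receptor found in astrocytes as well as neurons, was read by 164178_i_at on design B. Its log2 signal was 2.54 in the paired and 2.39 in the unpaired pool, a log2 ratio of 0.16. Both values were low for the design, at the 9.67th and 5.70th percentiles. The letter suffix in the identifier marks a probe set that did not meet the full design requirements. Grm2, the other group II receptor, had a log2 signal of 1.87 in both pools on 171603_at of design C. It stood at the 5.92nd percentile in the paired and the 5.82nd in the unpaired pool, with a log2 ratio of 0.01. At these signals a difference between the pools would be hard to detect, and neither value shows whether the transcript was present.

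Grm7, a group III receptor of presynaptic active zones, had the highest signal rank of the members. On 137373_at of design C its log2 signal was 5.25 in the paired and 5.19 in the unpaired pool, the 82.0th and 81.3rd percentiles of the design. The log2 ratio was 0.07, or 1.05-fold, well inside the SD of 0.18 in its signal quartile. Its rank thus moved by 0.649 percentile points between the pools.

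Grm8, a presynaptic group III receptor, gave the largest difference and also an opposite one. Probe set 94622_at on design A had a log2 signal of 4.01 in the paired and 3.66 in the unpaired pool, a log2 ratio of 0.36 or 1.28-fold. This was the one member ratio larger than the SD of its signal quartile, 0.21. The share of all probe sets with a ratio larger than the SD of their quartile was not counted. The Grm8 ratio lay at the 94.9th percentile of the log2 ratios of design A, where 8.36% of probe sets lay at least as far from 0. Probe set 166827_at on design C had 2.16 in the paired and 2.21 in the unpaired pool, a log2 ratio of -0.05. The designs thus gave opposite signs for Grm8, 0.403 apart on the log2 scale. Both probe sets lay below the median signal of their design. The design A probe set stood at the 36.9th percentile in the paired and the 32.0th in the unpaired pool. The design C probe set was the dimmer in rank, at the 20.1st percentile in the paired and the 23.2nd in the unpaired pool. Which Grm8 transcript each probe set reads was not checked against sequence.

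**Figure D2:**
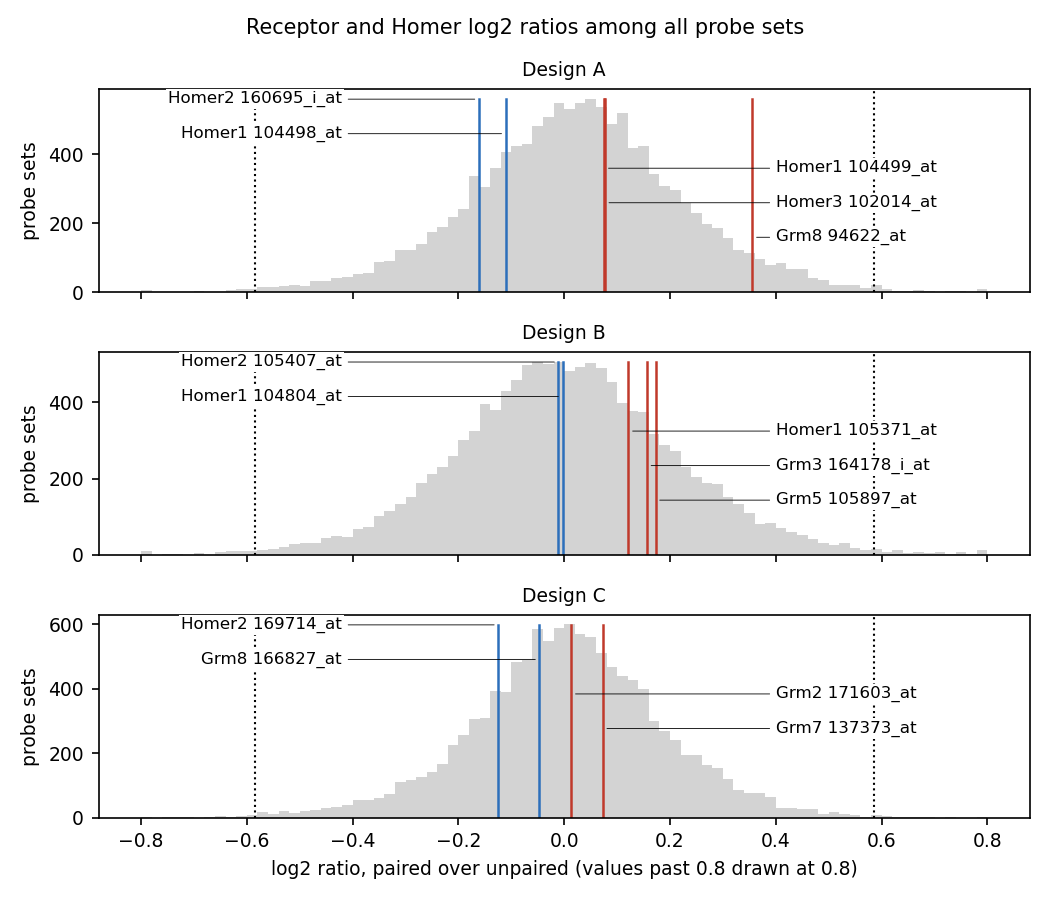
Histograms of the log2 ratio, paired over unpaired, of all probe sets of designs A, B and C (vertical axis, number of probe sets), with a line for each receptor and Homer probe set, red where higher and blue where lower in the paired pool. Dotted lines mark 1.5-fold, and every member line lies between them, Grm8 on design A being farthest out at 0.36.

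Homer1 had 4 probe sets, with log2 ratios between -0.11 and 0.12. On design A, 104498_at had a log2 signal of 2.55 in the paired and 2.67 in the unpaired pool, a log2 ratio of -0.11. The other design A probe set, 104499_at, had 2.61 in the paired and 2.54 in the unpaired pool, a log2 ratio of 0.08. These lay in the lowest signal quartile of the design and pointed in opposite directions.

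On design B, Homer1 probe set 104804_at was the brightest in rank of the 4, at the 35th percentile in the paired and the 35.2nd in the unpaired pool. Its log2 signals were 3.60 in the paired and 3.62 in the unpaired pool, and its log2 ratio was -0.0032, closer to 0 than that of any other member. Probe set 105371_at had 2.33 in the paired and 2.22 in the unpaired pool, a log2 ratio of 0.12, at the 4.56th and 2.16th percentiles of the design. With 2 probe sets higher and 2 lower, Homer1 showed no common direction, and all 4 lay below the median signal of their design. The annotation does not say which of them read the short, activity-induced form, so that form has no value of its own here. Tissue was taken 10 to 30 min from sacrifice in both groups, per the labels' protocols, and the bearing of this time on Homer1 was not tested.

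Homer2, a long-form scaffold with a coiled coil, was lower in the paired pool on each of its 3 probe sets, 1 on each design. On design A, 160695_i_at had a log2 signal of 5.46 in the paired and 5.63 in the unpaired pool, a log2 ratio of -0.16 or 1.12-fold lower. On design B, 105407_at had 4.19 in the paired and 4.21 in the unpaired pool, a log2 ratio of -0.01. On design C, 169714_at had 1.87 in the paired and 2.0 in the unpaired pool, a log2 ratio of -0.12. Both of these signals were low for the design, at the 5.77th percentile in the paired and the 12.3rd in the unpaired pool. Of the members with 3 or more probe sets, Homer1 and Homer2, only Homer2 had all of them in one direction, at a mean of -0.10. Each ratio was smaller than the SD of its signal quartile (0.20, 0.23 and 0.17 on designs A, B and C). How often all probe sets of a gene share a direction was not counted over all genes. The identifier of the design A probe set carries the same letter suffix as that of Grm3. The probe set on design B, which has no suffix and stood near the median of signal, gave almost no difference.

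Homer3, the scaffold abundant in Purkinje cells, was read by 102014_at on design A. Its log2 signal was 5.26 in the paired and 5.20 in the unpaired pool, a log2 ratio of 0.08 or 1.05-fold. It stood at the 57.1st percentile in the paired and the 56.3rd in the unpaired pool, and 67.6% of the probe sets of design A had ratios at least as far from 0.

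Signal ranks were set beside those of 19 control probe sets for Bacillus subtilis and yeast genes on the same arrays. Whether any of these RNAs had been added is not given in the sources used here, and since the probes differ the ranks only describe where the members lay. The controls had median ranks between the 8.07th and 28.8th percentile over the 6 arrays. The same control, for a phenylalanine biosynthesis gene of Bacillus subtilis, was the brightest on all 6, at the 55.5th to 81.3rd percentile, and no other control ranked above the 52.6th.

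Grm7 on design C and Homer2 on design A lay above all 19 controls in both pools. Above all controls but the brightest in both pools lay 6 probe sets, the further ones being Grm5, Grm8 on design A, Homer2 on design B and Homer3. Grm2 on design C lay below all 19 in both pools, and Homer1 105371_at above 1 in the paired and 0 in the unpaired pool. In order of the rank of their mean signal over both pools, Grm7 stood at the 81.7th percentile of design C, Homer2 at the 61.6th and Homer3 at the 56.8th of design A, and Grm5 at the 48.2nd and Homer2 at the 47.2nd of design B. With 1 array per group and design these ranks have no spread, so no neighbours in this order can be said to differ. The 3 probe sets whose signal reached the median of their design were those of Grm7, Homer3 and Homer2 on design A, and the other 11 lay below it.

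**Figure D3:**
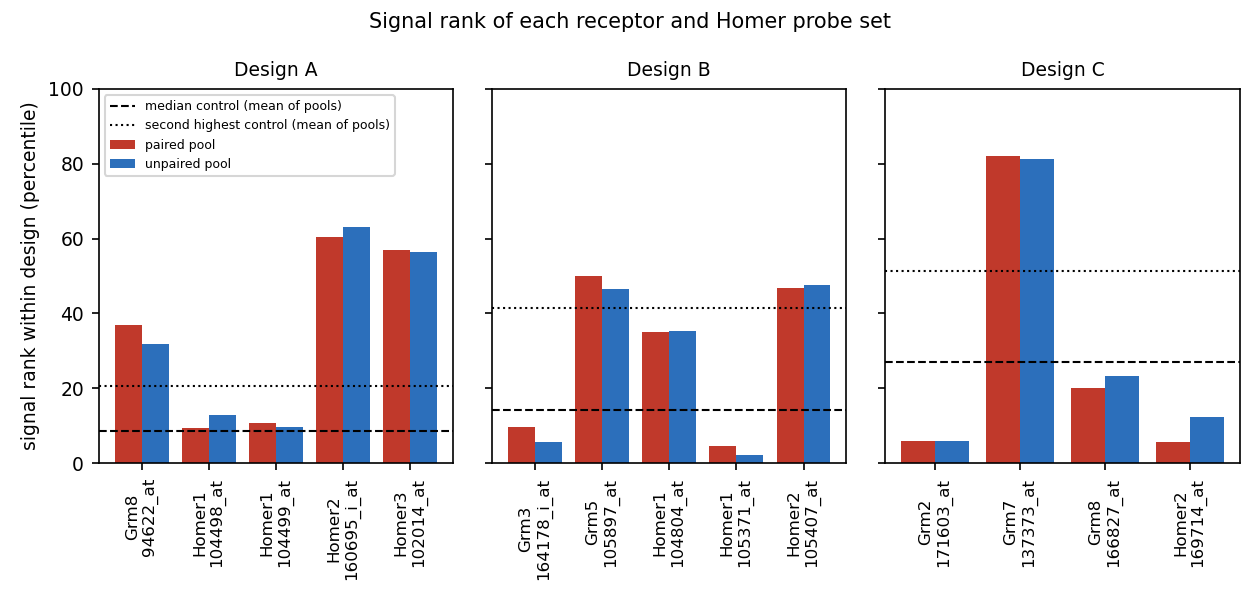
Signal rank (percentile within the design, 0 to 100) of each receptor and Homer probe set in the paired pool (red, left) and the unpaired pool (blue, right), 1 array per bar. Dashed and dotted lines give the median and the second highest of the 19 bacterial and yeast control probe sets, averaged over the 2 pools; Grm7 on design C ranks highest in both pools, and Homer1 105371_at ranks lowest in both, at the 4.56th percentile in the paired and the 2.16th in the unpaired pool.

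The genes through which these receptors act were compared as lists, each gene by the mean log2 ratio of those of its probe sets whose signal reached the median of their design. Over the 10576 genes measured in this way 49% were higher in the paired pool, 0.388% lay past 1.5-fold and the median log2 ratio was -0.0039. In the Gq and phospholipase C pathway, 5 of 12 measured genes were higher and 7 lower, with a median of -0.02. The diacylglycerol kinase gene Dgkz had log2 signals of 7.47 in the paired and 7.23 in the unpaired pool, a log2 ratio of 0.25. Plcb4, the phospholipase C isoform of many cerebellar neurons, had 7.79 in the paired and 7.56 in the unpaired pool, a log2 ratio of 0.24. Ncdn, which encodes the mGlu5-binding protein norbin, had 9.47 in the paired and 9.63 in the unpaired pool, a log2 ratio of -0.15.

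Among Homer-binding proteins and postsynaptic scaffolds, 5 of 10 measured genes were higher and 5 lower, with a median of 0.0028. Dlg4, which encodes the scaffold PSD-95, had log2 signals of 7.49 in the paired and 7.23 in the unpaired pool, a log2 ratio of 0.26. Ryr2, a calcium release channel, had 4.78 in the paired and 4.96 in the unpaired pool, a log2 ratio of -0.17. Dlgap4, a Shank-binding scaffold, had ratios of -0.12 on design A and -0.11 on design B. The Shank genes themselves, which link Homer to the postsynaptic density, are named here after their values were seen. Their log2 ratios were 0.04 for Shank1, -0.07 for Shank2 and -0.06 for Shank3. That of Shank3 is the mean of 2 design B probe sets of opposite sign, -0.17 and 0.04.

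For the Gi/o pathway and the partners of group II and III receptors, 7 of 17 measured genes were higher and 10 lower, with a median of -0.0063. Adcy1, a calcium-stimulated adenylate cyclase, had log2 signals of 8.18 in the paired and 7.84 in the unpaired pool on design B, and 5.80 in the paired and 5.22 in the unpaired pool on design C. Its mean log2 ratio was 0.47, and both probe sets were higher in the paired pool. Cacna1a, the P/Q-type calcium channel that Gi/o-coupled receptors inhibit at terminals, had 5.35 in the paired and 4.98 in the unpaired pool, a log2 ratio of 0.38. Adcy9, another adenylate cyclase, was lower on both of its probe sets, with a mean log2 ratio of -0.28. By the mean over its probe sets, none of the genes measured in these 3 lists lay past 1.5-fold, although the design C probe set of Adcy1 did. The lists' medians lay within 0.02 of that of all genes.

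**Figure D4:**
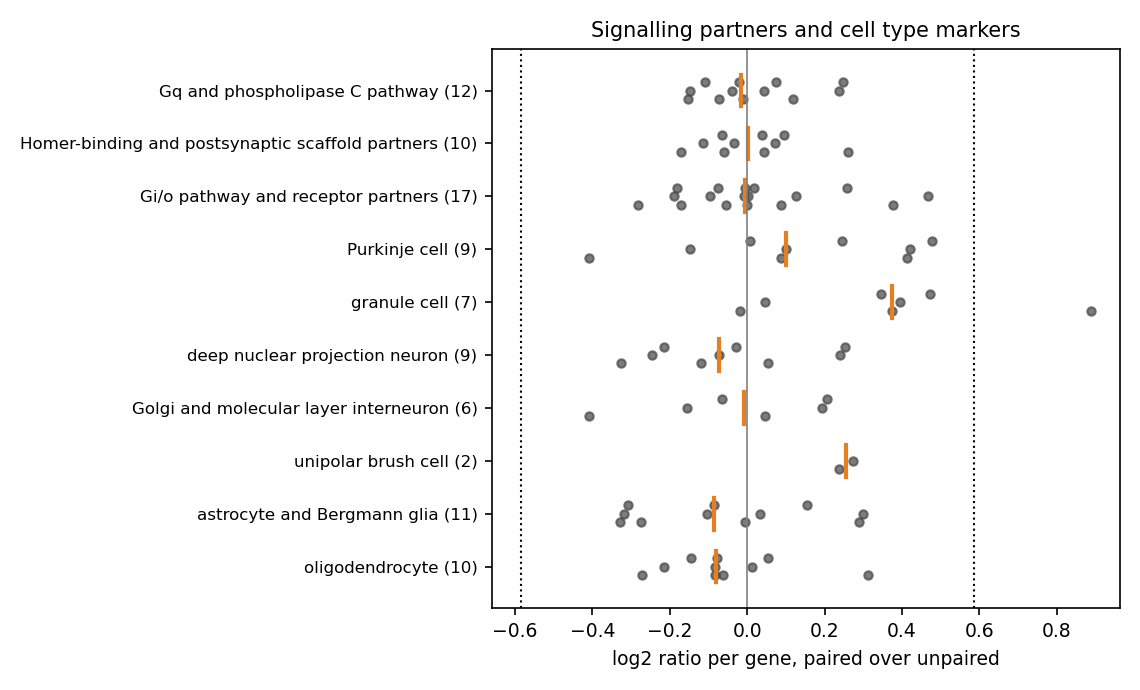
Log2 ratio, paired over unpaired, of each measured gene (points, spread vertically for legibility) in 3 signalling lists and 7 cell type marker lists, with the number of genes in brackets and the list median as an orange bar; dotted lines mark 1.5-fold. The signalling lists have medians near 0, while granule cell markers have a median of 0.37 and Gabra6 lies past 1.5-fold.

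Markers of the cells that the dissection could hold give the setting for these values. Among the granule cell markers 6 of 7 measured genes had the higher signal after paired training, with a median log2 ratio of 0.37. Their mean log2 signal was 6.93 in the paired and 6.53 in the unpaired pool over 6 probe sets of design A, and 5.88 in the paired and 5.47 in the unpaired pool over 3 of design C. Gabra6, a GABA receptor subunit of granule cells, had a mean log2 ratio of 0.89, from 0.73 and, on a suffixed probe set, 1.04. The cadherin gene Fat2 had 0.47. Among the Purkinje cell markers this held for 7 of 9 genes, with a median of 0.10, or 0.0048 without suffixed probe sets. Their mean log2 signal was 6.23 in the paired and 6.15 in the unpaired pool over 9 probe sets of design A, and 5.0 in the paired and 4.58 in the unpaired pool over 4 of design C, while 1 on design B had 4.44 in the paired and 4.59 in the unpaired pool. Shisa6 and Car8, which Purkinje cells express, had log2 ratios of 0.48 and 0.42. Shisa6 was read by 1 suffixed probe set of design C. The value of Car8 is the mean of 0.24 on design A and 0.61 on design C, the latter past 1.5-fold. The other genes of this list, named after their values were seen, lay on both sides. Ppp1r17 had 0.41, Dab1 0.25, Rora 0.10, Calb1 0.09 and Pcp2 0.0080, while Slc1a6 had -0.15 and the GABA synthesis gene Gad1 -0.41. None of these markers was at 0, since every probe set has a signal. Their part in the ratios of Homer3, Grm8 or any other member was not tested, nor in those of signalling list genes such as Adcy1 and Cacna1a. A change in the share of a cell type and a change in RNA per cell cannot be told apart in pooled tissue.

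Markers of deep nuclear projection neurons were higher for 3 of 9 genes, with a median of -0.07, Irx3 at -0.33 and the vesicular glutamate transporter gene Slc17a6 at 0.25. That mean for Slc17a6 covers 0.85 on 1 probe set of design B, which is past 1.5-fold, and -0.08 and -0.0025 on 2 probe sets of design C. Of 12 such markers listed, 9 reached the signal median of a design, and their mean log2 signal was 8.29 in the paired and 8.35 in the unpaired pool over 10 probe sets of design A. It was 8.33 in the paired and 8.21 in the unpaired pool over 6 probe sets of design B, and 6.79 in the paired and 6.81 in the unpaired pool over 6 of design C. Astrocyte and Bergmann glia markers were higher for 4 of 11 genes, with a median of -0.09 and with S100b at -0.33 and Timp4 at -0.32. Aqp4 at 0.30 and Slc1a3 at 0.29, named after their values were seen, lay on the other side. The designs carried partly different genes of this glial list, so their values do not compare the same genes. On design B 4 of 4 probe sets were higher in the paired pool, at a mean log2 ratio of 0.30. On design C this held for 0 of 4, at -0.34, and on design A for 4 of 10, at -0.01. The median of the glial list was -0.01 under quantile scaling, and that of the projection neuron markers was -0.01 with no signal filter. Oligodendrocyte markers were higher for 3 of 10, with a median of -0.08, Olig2 at 0.31 and Sox10 at -0.27. That mean for Sox10 covers -0.53 and -0.27 on design A and -0.015 on a suffixed probe set of design B. Golgi and molecular layer interneuron markers were higher for 3 of 6, with a median of -0.01, Gad1, shared with the Purkinje list, at -0.41 and Sst at 0.21, and of the 2 unipolar brush cell markers measured Calb2 had 0.27 and Plcb4, shared with the Gq list, 0.24.

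Signals of the paired and unpaired arrays of a design had a Pearson r of 0.991 to 0.995 over probe sets, which describes probe sets and not replicates. The mean log2 signal of bacterial and phage hybridization controls was 8.16 to 8.50 in the paired and 9.77 to 10.2 in the unpaired arrays, and that of the 18S ribosomal RNA probe sets 5.55 to 5.63 in the paired and 6.25 to 6.50 in the unpaired arrays. The gap between the 3′ and 5′ probe sets of Actb, a measure of RNA integrity and labelling, was 0.819 to 1.17 on the log2 scale in the paired and 0.958 to 1.32 in the unpaired arrays. These 3 measures were lower in the paired array on every design. The same gap for Gapdh did not share one direction, at 0.350 in the paired and 0.334 in the unpaired array of design A, 0.340 in the paired and 0.525 in the unpaired array of design B, and 0.0695 in the paired and 0.0724 in the unpaired array of design C. The part of these differences in the members' ratios was not tested.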

How the data were processed

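Pooled total RNA of each training group was labelled with biotin as cRNA and read on 3 one-colour array designs, per the labels' protocols. The log2 signals, 1 per probe set and array, were used as deposited; their log base was inferred from their range, while the sources used here do not name the summarization, background correction or normalization. The 198 control probe sets were set aside. Symbols came from the platform annotation, updated through the gene identifier with RefSeq (GRCm38.p6): 29131 probe sets had 1 symbol, 724 several, none of which named a member, and 6846 none.

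A constant was added to each paired array, which brought the median log2 ratio of the brighter part of the probe sets (signal not below the median of the design) to 0. Designs were never normalized together. Members were described on all their probe sets, with no floor. Lists used probe sets of that brighter part. Every member was named, with the 3 genes of each signalling list and the 2 of each marker list that had the largest absolute log2 ratio. Members and lists were chosen with earlier results of these data known. No test was possible with 1 array per group and design, and size was counted at 1.5-fold. Alternatives covered the scaling (none, quantile, loess with span 0.3), floors at the 25th and 50th percentile, signal filters, suffixed probe sets, 1 probe set per gene, and each design alone. The steps were tested on simulated data. Python 3.11.15, pandas 2.3.3 and statsmodels 0.14.6 were used.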

Additional observations from a re-analysis of the deposited data

How the results depend on the processing

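No paired analysis was possible because each training group had 1 array per design. No member probe set lay past 1.5-fold under any scaling, floor or filter tried, and without scaling or under quantile scaling no member changed sign. Under loess scaling Grm2 moved to -0.0031 and no other member changed sign. The log2 ratio of Grm8 on design A was 0.29 under quantile and under loess scaling, against 0.36. A floor at the 25th percentile of signal set 7 of the 14 log2 ratios to 0, leaving 4 higher in the paired pool, and a floor at the 50th set 11 to 0, Grm8 on design A among them, leaving 2 higher. The members' median log2 ratio was 0 under both floors, 0.12 on design B alone and -0.017 on design C alone, against 0.04 over all designs. The cause of these differences between designs was not tested, while those under the floors follow from values at the floor being equal. Medians of the 3 signalling lists changed sign in 7 comparisons with an alternative and lay between -0.033 and 0.027 throughout. The granule cell median was 0.29 with no signal filter, and the Purkinje cell median was 0.17 with no signal filter and 0.0048 without suffixed probe sets. The projection neuron median was -0.010 with no signal filter, and the astrocyte median was -0.012 under quantile scaling. Low signal limits what can be seen for 11 of the 14 probe sets.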

Other observations

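Among the genes of the 3 signalling lists, 6 had 3 or more probe sets whose signal reached the median of the design. Of these, 2, Kcnj9 and Gnai2, had all of them in one direction, and both are named after their values were seen. The share of all genes with as many probe sets that did so was not counted, so this count of 2 among 6 has no background and is a description only. Kcnj9 encodes a subunit of the G protein-gated potassium channels that Gi/o-coupled receptors open. Its log2 signals on design A were 7.59 in the paired and 7.20 in the unpaired pool on a suffixed probe set, and 5.52 in the paired and 5.33 in the unpaired pool on another. On design B they were 6.24 in the paired and 6.08 in the unpaired pool, and on design C 4.81 in the paired and 4.56 in the unpaired pool. All 4 probe sets were thus higher in the paired pool, with log2 ratios of 0.17 to 0.41 and a mean of 0.26, and they stayed between 0.16 and 0.45 under no, quantile and loess scaling. Kcnj9 is also expressed by granule cells, whose markers were higher in the paired pool, and their part in this was not tested.

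Gnai2, an inhibitory G protein alpha subunit, was lower on its 3 probe sets, all on design A, with log2 ratios of -0.39, -0.05 and -0.07. The largest was on a suffixed probe set, with a log2 signal of 9.89 in the paired and 10.3 in the unpaired pool. The ratio of -0.07 was on a suffixed probe set too, and only that of -0.05 was on one without a suffix. Under no, quantile and loess scaling the ratios lay between -0.40 and -0.0050.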
